A study of Mus musculus with 2 samples.

Results

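The 38 genes described here encode actin itself and the proteins that store, polymerise, branch, cap, bundle, contract and signal to actin filaments. They were chosen by gene symbol, with earlier results of these data known, out of the 27998 genes of each count table. All 38 were found. In the cells kept for analysis they took 5.65% of all transcript counts in the medial library and 5.95% in the lateral library.

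Actin cycles between single subunits (monomers) and filaments. Thymosins hold monomers in reserve, profilin delivers them to growing ends, cofilin and its helpers take old filaments apart, and the Arp2/3 complex starts new branches when small GTPases, which act as switches, signal at the membrane. Microglia, the resident macrophages of the brain, rely on this cycle to move their processes, to migrate and to engulf debris such as damaged myelin.

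The microglia had been sorted by flow cytometry from 2 regions of the corpus callosum, the white matter tract that joins the hemispheres: its medial and its lateral part. Each region gave 1 droplet-based single-cell library of 3′ transcript ends. Both groups were C57Bl6 mice with the genotype given as CX3CR1, fed cuprizone, a copper chelator that strips myelin from this tract, for 4 weeks, and there was no group without cuprizone. The sources used here do not give the allele at CX3CR1, the number of mice behind each library or the sorting gate. With 1 library per region there is no replicate, so no test between regions was made, and each 95% interval below covers counting error only, not the difference between animals.

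Barcodes with at least 2400 unique molecular identifiers (UMIs, 1 per captured transcript) and at most 10% mitochondrial UMIs were taken as cells, which gave 2131 medial cells with a median of 10732 UMIs and 2308 lateral cells with a median of 9694. The libraries shared 7 cell barcodes, 0.328% of the medial and 0.303% of the lateral cells. The 10 microglial marker genes were all detected and summed to 107 UMIs per 10000 in medial and 113 in lateral cells, while the markers of 10 other cell types stayed at or below 1.16 per 10000 in both libraries. RNA outside cells, read from barcodes with at most 100 UMIs, held the actin genes at 6.29% of its UMIs in the medial library, against 6.57% in the lateral one, so all of these transcripts also occur as free RNA. The part of free RNA in the values below was not tested.

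Summed over cells, the 38 genes reached 56536 CPM (UMIs scaled to a total of 1000000 per library) in medial microglia, against 59489 CPM in lateral microglia. The log2 ratio of medial over lateral was -0.073, with an interval from -0.077 to -0.070. This small shift moved with the weight of cells, since it was -0.13 when each cell counted alike, and with scaling, since it was -0.036 after centring on the median gene. The median log2 ratio of the 38 genes was -0.058, beside -0.037 over all 9843 genes with at least 100 UMIs, and all 38 had that many. A ratio of 1.1 was passed by 2 of the 38 genes in the medial direction, Was and Myh9, where 16.3% of all genes did so, and by 4 in the lateral direction, Arpc5, Capg, Lsp1 and Myl12b, where 24.7% of all genes did so. A ratio of 1.2 was passed by Was alone in the medial direction, beside 7.42% of all genes, and by Lsp1 alone in the lateral direction, beside 7.49% of all genes. Ratios of scarce genes scatter more than those of abundant ones: among the 1372 genes with a mean of at least 100 CPM, 179 were higher and 228 lower in the medial library past a ratio of 1.1.

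**Figure D1:**
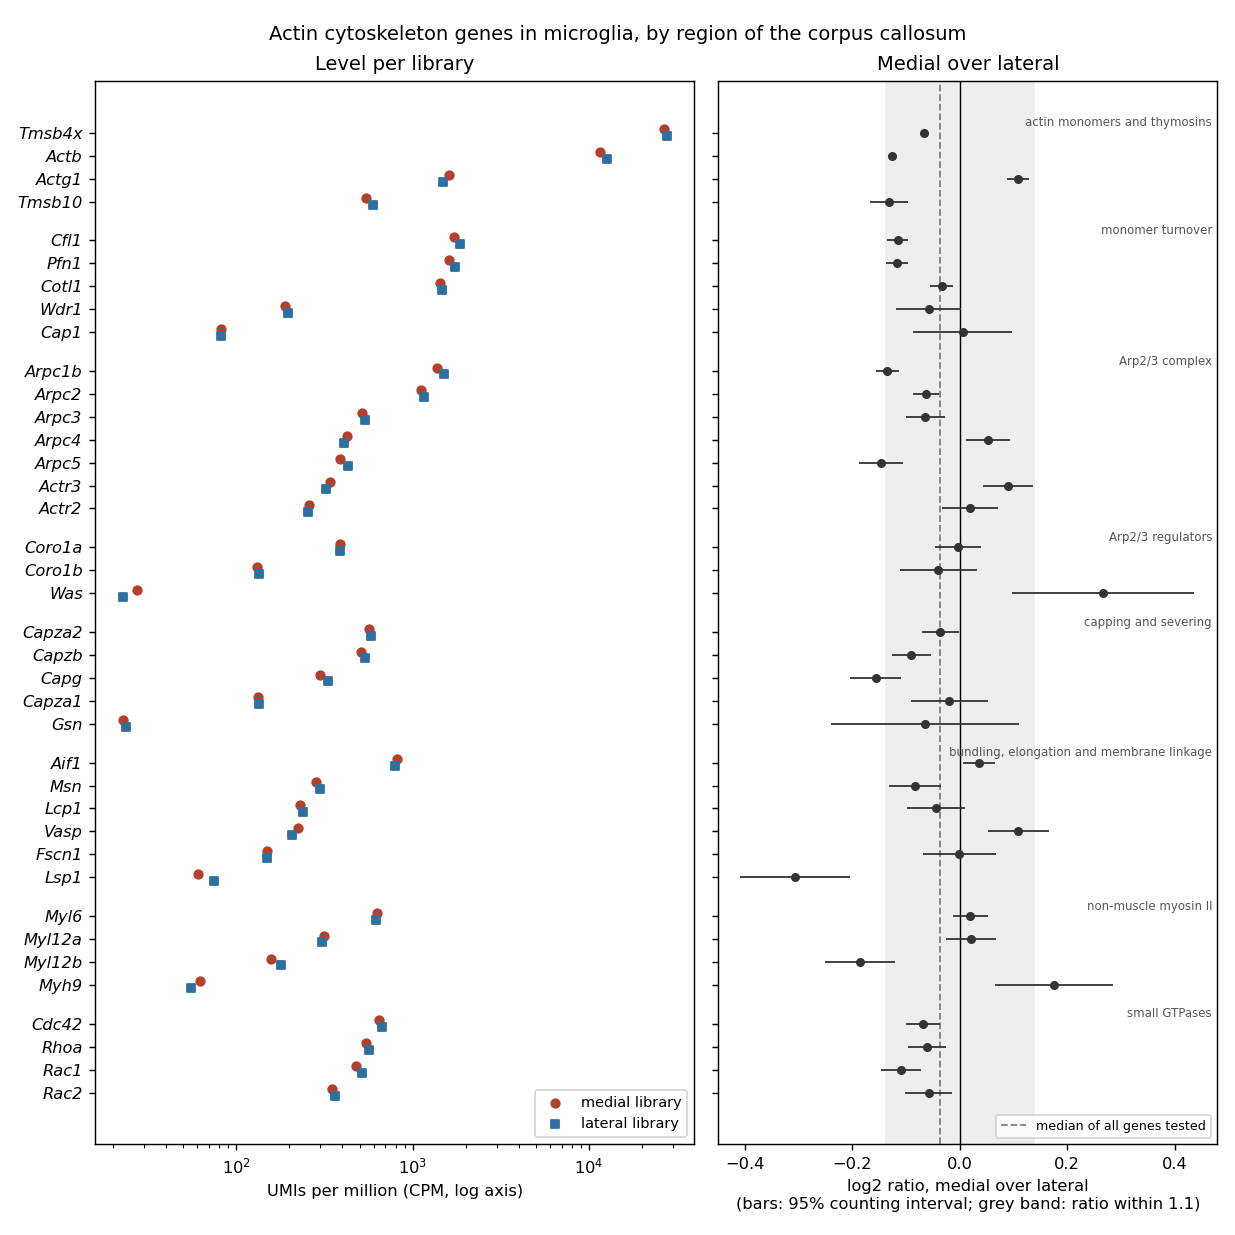
Level of each of the 38 genes in the medial (circles) and lateral (squares) library in CPM on a log axis (left), and the log2 ratio of medial over lateral with its 95% counting interval (right), grouped by role. Medial levels run from 22.7 CPM for Gsn to 26460 CPM for Tmsb4x, and most ratios lie inside the grey band of a ratio of 1.1; Was stands highest and Lsp1 lowest.

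The monomer pool dominated the group. Tmsb4x, thymosin beta 4, the main store of actin monomers, was at 26460 CPM in the medial and 27703 CPM in the lateral library and had rank 3 in level among all genes. Actb, beta-actin, had rank 4 with 11511 CPM in medial and 12563 CPM in lateral cells. Since each UMI stands for 1 captured 3′ end, these levels were not divided by transcript length. The log2 ratio was -0.066 for Tmsb4x (interval -0.071 to -0.061) and -0.13 for Actb (interval -0.13 to -0.12), so both were slightly lower in the medial library. For Actb the size of that ratio rested on which cells were counted: it was -0.26 when each cell counted alike and -0.033 among barcodes with at least 5000 UMIs.

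The second cytoplasmic actin went the other way. Actg1, gamma-actin, reached 1606 CPM in medial microglia and 1490 CPM in lateral microglia, a log2 ratio of 0.11 (interval 0.087 to 0.13). Under all 10 other ways of calling, weighting and scaling cells this ratio lay between 0.11 and 0.17. Tmsb10, thymosin beta 10, a smaller monomer store, was at 541 CPM in the medial and 593 CPM in the lateral library, a log2 ratio of -0.13 (interval -0.17 to -0.097). Actin transcripts have many processed copies in the genome. Of the 57-base windows, the read length, in the last 500 bases of the annotated Actg1 transcripts, 48.6% also occur in another annotated gene, mostly pseudogenes, compared with 8.48% for Actb, 36.3% for Tmsb10 and 0% for Tmsb4x, so the levels of Actg1 and Tmsb10 are less certain than those of Actb and Tmsb4x.

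Actin genes are textbook targets of serum response factor (SRF), which binds a DNA motif called the CArG box, and the promoters of the 38 genes were searched for it. RefSeq promoter windows of 300 bases, 250 before and 50 after the transcript start in build GRCm38.p6, were at hand for 32 of the 38 genes; Actb was not among them. The box, searched on both strands, was found in 3 of the 32, and in 1.46% of the promoters of all genes with at least 100 UMIs and 1.81% of all 27025 genes with a window. These 3 windows are shown with the box in capitals, 5′ to 3′ on the strand of the gene: Actg1 lies at chr11:120348446-120348745 on the minus strand with the box starting 90 bases before the start, Myl6 at chr10:128492960-128493259 on the minus strand with the box 50 bases before it, and Arpc4 at chr6:113377863-113378162 on the plus strand with the box 250 bases before it, at the edge of the window. 
Actg1: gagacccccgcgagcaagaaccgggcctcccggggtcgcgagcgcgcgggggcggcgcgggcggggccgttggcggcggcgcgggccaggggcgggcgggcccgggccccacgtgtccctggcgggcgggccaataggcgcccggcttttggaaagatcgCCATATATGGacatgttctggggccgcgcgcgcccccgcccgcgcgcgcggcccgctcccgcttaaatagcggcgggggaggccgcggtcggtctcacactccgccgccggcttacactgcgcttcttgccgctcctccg
Myl6: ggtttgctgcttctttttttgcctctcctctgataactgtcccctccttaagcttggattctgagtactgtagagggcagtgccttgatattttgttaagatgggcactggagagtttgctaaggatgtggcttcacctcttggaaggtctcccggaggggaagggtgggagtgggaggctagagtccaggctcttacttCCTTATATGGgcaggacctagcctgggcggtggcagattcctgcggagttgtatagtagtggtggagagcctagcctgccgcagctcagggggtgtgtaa
Arpc4: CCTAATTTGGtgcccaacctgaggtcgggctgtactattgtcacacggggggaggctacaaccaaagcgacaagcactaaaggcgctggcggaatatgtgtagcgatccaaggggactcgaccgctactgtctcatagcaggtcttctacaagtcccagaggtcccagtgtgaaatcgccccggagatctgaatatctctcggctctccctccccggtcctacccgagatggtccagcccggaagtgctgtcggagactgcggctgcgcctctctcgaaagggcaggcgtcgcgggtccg
A match describes these letters and is not evidence of binding. Myl6 has a further window upstream, at chr10:128493837-128494136, which holds no box. That window lies nearer the annotated 5′ end of the gene, at 128494145, and the window with the box lies inside the gene. The log2 ratio of medial over lateral was 0.11 for Actg1, 0.020 for Myl6 and 0.052 for Arpc4, all above 0, as were the ratios of 11 of the 38 genes. For Myl6 the interval, -0.013 to 0.053, held 0, and the ratio was -0.0033 with cells thinned to 1 depth.

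Among the genes of monomer turnover, Cfl1, cofilin 1, which severs filaments and releases monomers, was at 1707 CPM in the medial and 1849 CPM in the lateral library. Pfn1, profilin 1, which loads monomers onto growing ends, was at 1603 CPM in medial and 1738 CPM in lateral cells. Both had a log2 ratio of -0.12, with intervals from -0.14 to -0.096. Cotl1, a coactosin-like filament-binding protein, was next in level with 1425 CPM in the medial and 1459 CPM in the lateral library. Wdr1, which speeds disassembly by cofilin, had 188 CPM in medial and 196 CPM in lateral microglia, and Cap1, which recycles monomers, had 81.8 CPM in medial and 81.5 CPM in lateral microglia. For Wdr1 and Cap1 the interval of the ratio held 0, so that a difference was not detectable at this depth.

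All 7 listed subunits of the Arp2/3 complex were expressed, at unequal levels and with mixed ratios. Arpc1b led with 1365 CPM in the medial and 1499 CPM in the lateral library, followed by Arpc2 with 1112 CPM in medial and 1162 CPM in lateral cells. The actin-related proteins that form the seed of the new branch, Actr2 (Arp2) and Actr3 (Arp3), were scarcer: Actr3 reached 341 CPM in medial and 321 CPM in lateral cells, and Actr2 259 CPM in medial and 256 CPM in lateral cells. Although these proteins sit in 1 complex, their transcripts did not share 1 ratio. The log2 ratio was -0.15 for Arpc5 (interval -0.19 to -0.11) and -0.13 for Arpc1b (interval -0.16 to -0.11), while it was 0.090 for Actr3 (interval 0.044 to 0.14) and 0.052 for Arpc4 (interval 0.011 to 0.093). Arpc3 was at 514 CPM in the medial and 538 CPM in the lateral library, with a ratio near that of Arpc2. For Actr3, 42.7% of the windows near the transcript end also occur in other annotated genes, and for Arpc4 15.1% are shared with the overlapping gene Ttll3.

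Of the regulators of Arp2/3, the coronins differed little between the regions. Coro1a, the leukocyte coronin, had 385 CPM in the medial and 386 CPM in the lateral library, and Coro1b, which helps to remove branches, had 131 CPM in medial and 135 CPM in lateral cells. Was, the blood-cell activator of Arp2/3 that is defective in Wiskott-Aldrich syndrome, was rare, with at least 1 UMI in 9.5% of medial and 7.41% of lateral cells thinned to 1 depth. It had 27.3 CPM in medial microglia, against 22.7 CPM in lateral microglia, a log2 ratio of 0.27 (interval 0.098 to 0.44). That ratio rests on 640 medial and 523 lateral UMIs, and the free RNA of the libraries also held more of it in the medial one, 21.7 CPM against 16.3 CPM in the lateral one.

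Capping and severing proteins were slightly lower in the medial library as a group, with a log2 ratio of -0.077 for their sum, close to -0.073 for all 38 genes. Capza2 and Capzb, subunits of capping protein, which blocks filament ends, differed little: Capza2 had 569 CPM in medial and 584 CPM in lateral cells, and Capzb 506 CPM in medial and 539 CPM in lateral cells. The remaining subunit gene, Capza1, had 133 CPM in the medial and 135 CPM in the lateral library, and 61.2% of its end windows occur in other annotated genes. Capg, a capping protein of macrophages, had 298 CPM in medial and 332 CPM in lateral microglia, a log2 ratio of -0.16 (interval -0.20 to -0.11). Gsn, gelsolin, which severs and caps, was among the scarcest of the 38 genes with 22.7 CPM in the medial and 23.7 CPM in the lateral library, and its interval, -0.24 to 0.11, is too wide to place it.

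Proteins that bundle, extend or anchor filaments held the gene with the lowest ratio. Lsp1, a filament-binding protein of leukocytes, had 60.4 CPM in medial microglia, against 74.7 CPM in lateral microglia, a log2 ratio of -0.31 (interval -0.41 to -0.21). It was as uneven in free RNA, with 60.4 CPM in the medial and 73.4 CPM in the lateral library. Vasp, which speeds filament growth at the leading edge, was higher in the medial library with 224 CPM, against 207 CPM in the lateral one, a log2 ratio of 0.11 (interval 0.052 to 0.17). Aif1, which encodes the microglial marker Iba1, a bundling protein, was the most abundant of this group, at 817 CPM in the medial and 798 CPM in the lateral library. Msn, moesin, which ties filaments to the membrane, had 282 CPM in medial and 298 CPM in lateral cells, and Lcp1, the bundler L-plastin, had 231 CPM in medial and 238 CPM in lateral cells. Fscn1, the bundler fascin, was at 149 CPM in both libraries.

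The genes of non-muscle myosin II, the motor that contracts filaments, had mixed ratios. Myh9, the heavy chain, had 62.4 CPM in medial and 55.2 CPM in lateral microglia, a log2 ratio of 0.18 (interval 0.066 to 0.29). Myl12b, a regulatory light chain, had 157 CPM in medial and 179 CPM in lateral microglia, a log2 ratio of -0.19 (interval -0.25 to -0.12). Its near copy Myl12a had 313 CPM in the medial and 308 CPM in the lateral library, and the light chain Myl6 had 629 CPM in medial and 620 CPM in lateral cells. The log2 ratios of 0.021 for Myl12a and 0.020 for Myl6 had intervals that held 0. The light chains share sequence with each other or with pseudogenes in 39.5% (Myl12b), 26.7% (Myl12a) and 26.0% (Myl6) of the end windows, and their split is uncertain to that extent.

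All 4 small GTPases had ratios below the median ratio of all genes. Cdc42, which drives filopodia, had 642 CPM in the medial and 673 CPM in the lateral library, and Rhoa, which drives contraction, had 541 CPM in medial and 564 CPM in lateral cells. Rac1, which drives lamellipodia, had 480 CPM in medial and 518 CPM in lateral cells, a log2 ratio of -0.11 (interval -0.15 to -0.073). Its leukocyte relative Rac2 had 349 CPM in the medial and 364 CPM in the lateral library.

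Other genes of the actin system were drawn from 5 further lists: paralogues of the 38 genes, nucleation and elongation, small GTPase signalling, filaments with adhesion and cortex, and SRF with its cofactors. Of 144 listed symbols 140 were in the count tables and 110 had at least 100 UMIs, with a median log2 ratio of 0.0066. Past a ratio of 1.1, 16 of the 110 were higher and 17 lower in the medial library, next to the 16.3% and 24.7% of all genes given above. The largest differences among abundant genes were outside the 38. Marcksl1, a membrane-bound filament cross-linker, had 571 CPM in medial microglia, against 404 CPM in lateral microglia, a log2 ratio of 0.50 (interval 0.46 to 0.54). Its relative Marcks had 761 CPM in the medial and 717 CPM in the lateral library, a log2 ratio of 0.085. Rhob, a relative of Rhoa found on endosomes and induced early by stimuli, had 328 CPM in medial and 249 CPM in lateral cells, a log2 ratio of 0.40 (interval 0.35 to 0.45). Myo1e, an unconventional myosin of phagocytic cups, had 78.5 CPM in medial and 91.4 CPM in lateral cells, a log2 ratio of -0.22 (interval -0.31 to -0.13). In the same list of filament genes, Cnn2, a calponin, had 6.95 CPM in medial and 8.94 CPM in lateral cells, from few UMIs.

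In the list of GTPase signalling, 7 of 26 genes were higher and 1 was lower in the medial library past a ratio of 1.1, beside 16.3% of all genes higher and 24.7% lower. Its most abundant gene, Arhgdia, which holds these GTPases inactive in the cytosol, had 446 CPM in medial and 484 CPM in lateral microglia, and Arhgap17, which switches them off, had 32.4 CPM in medial and 27.8 CPM in lateral microglia. The lowest ratios of that list were those of Arhgap30, with 66.4 CPM in medial and 73.8 CPM in lateral cells, and Arhgef1, with 45.5 CPM in medial and 49.98 CPM in lateral cells. Limk2, a kinase that switches cofilin off, had the second highest ratio with 4.18 CPM in medial and 3.69 CPM in lateral cells, but its interval, -0.25 to 0.62, held 0 and its sign changed when cells were thinned. Among nucleators, Brk1, a subunit of the WAVE complex, had 336 CPM in the medial and 338 CPM in the lateral library, and the formin Diaph1 had 15.4 CPM in medial and 12.4 CPM in lateral cells, a log2 ratio of 0.31 (interval 0.079 to 0.54). Wipf2 came next with 11.4 CPM in medial and 10.7 CPM in lateral cells, and the formins Fmnl3 (33.9 CPM medial, 37.4 CPM lateral) and Diaph3 (6.01 CPM medial, 6.94 CPM lateral) had the lowest ratios. Of the paralogues, Flii, a gelsolin relative, had 31.6 CPM in medial and 26.3 CPM in lateral cells, whereas the lower ones, Coro2a and the myosin heavy chain Myh10, were scarce: Coro2a had 4.48 CPM in medial and 5.94 CPM in lateral cells, and Myh10 had 2.35 CPM in medial and 3.04 CPM in lateral cells. The ratio of Coro2a changed sign when cells were thinned to 1 depth, and the interval of Myh10 held 0. Srf itself was scarce, with 8.79 CPM in the medial and 9.72 CPM in the lateral library, and its cofactor Elk4 had 19.0 CPM in medial and 15.7 CPM in lateral cells, a log2 ratio of 0.28 (interval 0.077 to 0.49). The other cofactors Elk3 (69.1 CPM medial, 73.2 CPM lateral), Mkl1 (7.04 CPM medial, 6.42 CPM lateral) and Mkl2 (4.52 CPM medial, 5.38 CPM lateral) had intervals that held 0.

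To compare single cells, each was thinned to 3869 UMIs, which left 2000 medial and 2077 lateral cells. The share of UMIs taken by the 38 genes then had a median of 5.43% in medial cells and 5.74% in lateral cells, and ran between the 5th and 95th percentiles from 2.84% to 9.59% in medial and from 3.18% to 10.1% in lateral cells. Its standard deviation over cells was 2.07 percentage points in medial and 2.18 in lateral cells, where binomial sampling of UMIs alone would give 0.372 in medial and 0.384 in lateral cells. Cells within each region thus differed far more than the medians of the regions did.

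Actb had the highest variance over mean of the 38 genes over cells. Its variance over cells was 56.3 times its mean in medial and 63.1 times in lateral cells. The 100 genes of nearest mean had medians of 1.86 in medial and 1.98 in lateral cells. Since Actb had rank 4 in level, nearly all of those genes had lower means, so that comparison is not at equal level. Pfn1, at rank 94, averaged 6.01 UMIs per thinned medial cell, against 49.1 for Actb. The ratio was 15.0 in medial and 15.9 in lateral cells for Tmsb4x. For Actg1 it was 2.33 in medial and 2.04 in lateral cells. Such ratios rise with the mean, which in thinned medial cells was 100 UMIs for Tmsb4x and 6.07 for Actg1. They therefore do not order genes of unlike level. Of Actb and Tmsb4x, the latter had the higher mean and the lower ratio in both libraries. Tmsb10, Capg, Lsp1 and Fscn1 were also more uneven than at least 86% of the genes of like mean in both libraries, whereas Arpc1b, with 1.24 in both, was more even than most.

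Actb had a long upper tail over cells. Most cells held few Actb UMIs, with 31.5% of medial and 29.8% of lateral cells at 10 to 19, and the tail ran past 200 with no clear gap in it. The tail held a shallow dip. In medial cells the share was 3.6% at 40 to 49 UMIs and 4.4% at 50 to 59. In lateral cells it was 2.65% at 50 to 59 UMIs and 3.42% at 60 to 69. Whether this dip parts separate classes of cells was not tested. Cells with 30 to 49 UMIs made up 8.05% of medial and 7.61% of lateral cells. A limit of 40 UMIs, set after seeing this shape, therefore divides a range without a gap. At or above it were 768 medial cells (38.4%, exact binomial interval 36.3% to 40.6%) and 848 lateral cells (40.8%, interval 38.7% to 43.0%). Those cells held a median of 95 Actb UMIs in medial and 101.5 in lateral cells, while the rest held a median of 13 in both, and they carried 80.8% of all Actb UMIs in medial and 83.6% in lateral cells. Neither Actg1 nor Tmsb4x had a tail of this length relative to its peak.

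**Figure D2:**
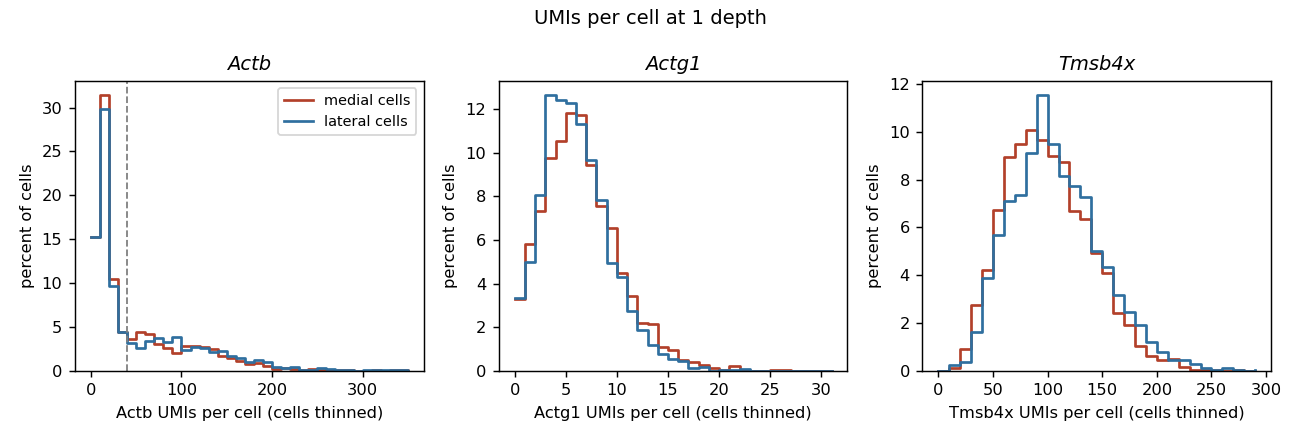
UMIs per cell of Actb (left), Actg1 (middle) and Tmsb4x (right) in medial and lateral cells thinned to 3869 UMIs, as percent of the cells of each library; the dashed line marks 40 Actb UMIs. Actb has a peak between 10 and 19 UMIs and a long tail to over 200, while Actg1 and Tmsb4x form 1 peak each.

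The Actb-high cells differed in depth from the others. Before thinning the median depth was 8907 UMIs for medial and 7477 for lateral Actb-high cells, against 11889 for medial and 11428 for lateral Actb-low cells. Among cells with at least 8000 UMIs before thinning, 28.8% of medial and 26.4% of lateral cells were Actb-high, so the order of the regions turned round; it stood with limits of 30 UMIs (42.9% medial, 45.3% lateral) and 60 UMIs (30.4% medial, 35.0% lateral). Mitochondrial shares were close, with medians of 2.22% in medial and 2.51% in lateral Actb-high cells, compared with 2.20% in medial and 2.46% in lateral Actb-low cells. At 1 depth the number of genes was close too, 1494 in medial and 1510.5 in lateral Actb-high cells, and 1482 in medial and 1495 in lateral Actb-low cells. Microglial markers averaged 99.96 UMIs per 10000 in medial and 103 in lateral Actb-high cells, and 108 in medial and 113 in lateral Actb-low cells. The part of cell depth in the Actb classes was not tested beyond these values.

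The classes were cut on Actb itself, so their Actb levels are descriptions. In Actb-high cells Actb was at 26687 CPM in the medial and 29065 CPM in the lateral library. In Actb-low cells, where values end at the limit, it was at 3961 CPM in medial and 3938 CPM in lateral cells. The share of cells in the high class, given above, also differed between the libraries, and the parts of share and level in the region difference were not separated. The other 37 genes were lower in the medial library in both classes, with log2 ratios of -0.059 in Actb-high and -0.095 in Actb-low cells.

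Few of the 37 other genes followed Actb. Summed, they were 0.084 higher on the log2 scale in Actb-high than in Actb-low medial cells and 0.051 higher in lateral cells. Actb itself was left out of the totals. The median of their ratios was 0.020 in medial and 0.026 in lateral cells, slightly below 0.031 and 0.039 over all genes. A ratio of 1.2 was passed upward in both libraries by 3 of the 37, Actr2, Myh9 and Rhoa, beside 5.47% of all genes, and downward by none, beside 0.856% of all genes. Actr2 had 3.71 UMIs per 10000 in Actb-high and 2.10 in Actb-low medial cells (log2 ratio 0.82, interval 0.70 to 0.95), and 3.93 in Actb-high and 1.99 in Actb-low lateral cells (0.98, interval 0.86 to 1.1). Myh9 had 1.14 in Actb-high and 0.516 in Actb-low medial cells (1.15, interval 0.91 to 1.39), and 0.863 in Actb-high and 0.464 in Actb-low lateral cells (0.89, interval 0.63 to 1.16). Rhoa had 6.81 in Actb-high and 4.79 in Actb-low medial cells (0.51, interval 0.42 to 0.59), and 6.94 in Actb-high and 5.08 in Actb-low lateral cells (0.45, interval 0.37 to 0.54). All 3 were also lower in the deepest than in the shallowest cells, and the part of depth in their ratios was not tested. The closest relative of Actb did not move with it: Actg1 differed by -0.0079 in medial and -0.032 in lateral cells, with intervals that held 0. Tmsb4x was slightly higher in Actb-high cells, by 0.11 in medial (interval 0.093 to 0.12) and 0.068 in lateral cells (interval 0.056 to 0.080). The other subunits of the Arp2/3 complex differed less than Actr2. Arpc2 (0.13 in medial, 0.083 in lateral cells) and Arpc1b (0.11 in medial, 0.082 in lateral cells) were slightly higher in Actb-high cells, with intervals above 0 in both libraries. Arpc5 differed by 0.17 in medial and 0.0092 in lateral cells, and Actr3 by 0.011 in medial and -0.019 in lateral cells.

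**Figure D3:**
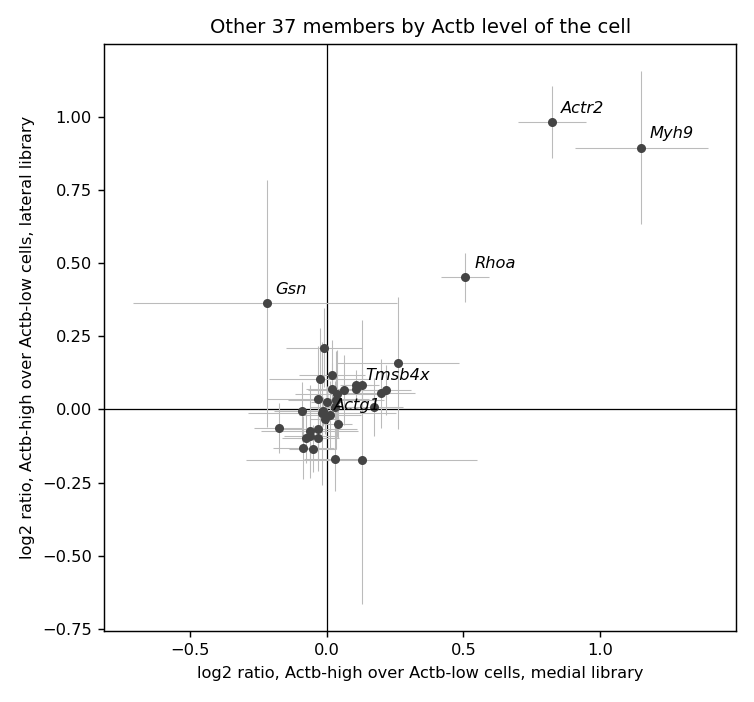
Log2 ratio of Actb-high over Actb-low cells for the other 37 genes in the medial (x axis) and the lateral library (y axis), with 95% counting intervals. Actr2, Myh9 and Rhoa lie apart at the upper right in both libraries. Actg1 lies near 0 and Tmsb4x slightly above 0.

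Outside the 38 genes, those most correlated with Actb over cells were ranked by the value nearer 0 of the libraries among 1010 genes with at least 0.5 UMIs per thinned cell. These correlations describe cells of 1 library each, which share depth and free RNA. The highest was Slc39a1, a zinc transporter, with a Spearman correlation of 0.59 over 2000 medial and 0.65 over 2077 lateral cells; it had 4.19 UMIs per 10000 in Actb-high and 0.512 in Actb-low medial cells, and 4.68 in Actb-high and 0.522 in Actb-low lateral cells. Bmp2k, an endocytic kinase, followed with 0.52 in medial and 0.57 in lateral cells, then the histone demethylase Kdm6b with 0.45 in medial and 0.49 in lateral cells, Bhlhe41, Lrrc58, Gnb1, Cbx3, Skil, Dpysl2 and Pim1. Of the 38 genes, Actr2 ranked 11th, Rhoa 17th and Tmsb4x 22nd among the 1010, and Actg1 252nd. Lrrc58 shares 6.13% of the Actb end windows by sequence, and the part of shared sequence in its rank was not tested. At the other end were Apoe, the lipid carrier raised in reactive microglia, with -0.27 in medial and -0.26 in lateral cells, Ctss, Lyz2, C1qb and Cst3.

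With all 38 genes summed, the ranking was similar at the top, where Lrrc58 (0.36 in medial and 0.37 in lateral cells), Bmp2k, Slc39a1 and Gnb1 led 979 candidate genes, followed by Ybx1, Bhlhe41, Oaz1, Cbx3, Serf2 and Ifi27l2a. The lowest was Apoe, with -0.59 in medial and -0.56 in lateral cells, then Ctss, Cst3, Lyz2 and H2-D1. Apoe alone took 47302 CPM in the medial and 41178 CPM in the lateral library and draws on the same fixed number of UMIs per thinned cell as the summed genes. The part of this shared total in the negative values was not tested.

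Pairs within the group were weakly correlated over cells. For the 32 genes with at least 0.5 UMIs per thinned cell, the 496 pairs had a median Spearman correlation of 0.036 in medial and 0.032 in lateral cells. Ranked by the value nearer 0 of the libraries, the highest pairs were Tmsb4x with Pfn1 (0.43 in medial, 0.39 in lateral cells), Tmsb4x with Cfl1 (0.43 in medial, 0.34 in lateral cells), Actb with Actr2 (0.29 in medial, 0.32 in lateral cells) and Pfn1 with Cfl1 (0.35 in medial, 0.27 in lateral cells). Actb also reached 0.26 in medial and 0.23 in lateral cells with Rhoa, and 0.24 in medial and 0.18 in lateral cells with Tmsb4x. Most other pairs were near 0, and in counts this sparse such values are no finding.

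**Figure D4:**
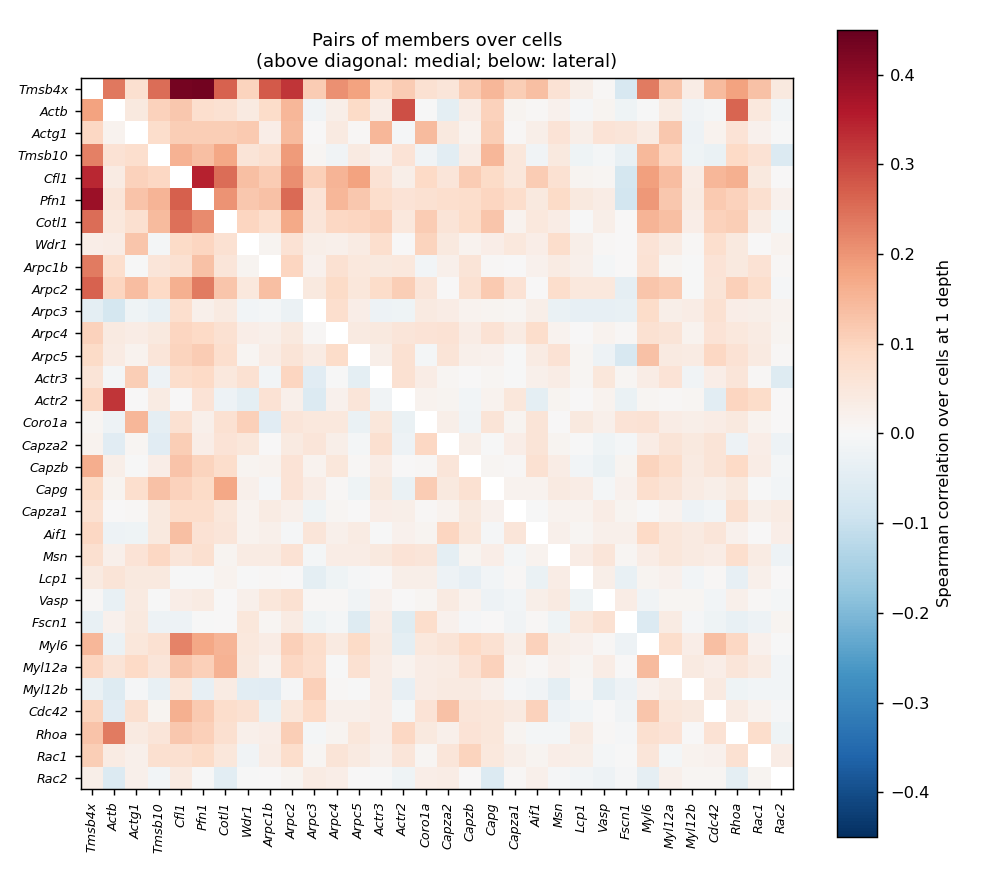
Spearman correlation over cells at 1 depth for pairs of the 32 genes with at least 0.5 UMIs per thinned cell, medial cells above and lateral cells below the diagonal. The block of Tmsb4x, Cfl1, Pfn1, Cotl1 and Arpc2 and the pairs of Actb with Actr2 and Rhoa stand out in both libraries.

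Cells were then ranked within each library by the summed UMIs of 6 gene lists that hold none of the 38 genes, and the top 10% were set against the rest; cells were called cycling when 2 or more cycling genes gave them 3 UMIs or more. Each class is a range of a score, not a cell type, and the limit cuts through ties: at its lowest value of 4 UMIs the MHC class II class left out 27 of 34 medial and 10 of 34 lateral cells with the same score. Ratios are of the shares of all UMIs, and a gene was counted when it passed a ratio of 1.2 in both libraries. Cells of 1 library are not replicates, so no test was made.

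The largest differences were in cells high for immediate early genes such as Fos, Jun and Egr1, which are switched on within minutes of a stimulus. The 38 genes took 4.24% of UMIs in these cells and 5.84% in the other cells of the medial library (log2 ratio -0.46), and 4.75% in high and 6.24% in other cells of the lateral library (-0.39). Past a ratio of 1.2, 12 of the 38 were lower, where 13.3% of all genes were, and 4 were higher, where 17.5% were. Tmsb4x differed by -0.65 in medial and -0.63 in lateral cells, Tmsb10 by -0.67 in medial and -0.60 in lateral cells, Myl6 by -0.69 in medial and -0.63 in lateral cells, and Pfn1 by -0.49 in both. The other genes lower in both libraries were Actb, Aif1, Arpc5, Capza2, Capzb, Cdc42, Cfl1 and Myl12a. Higher were Fscn1, with 2.80 UMIs per 10000 in high and 1.29 in other medial cells (log2 ratio 1.12, interval 0.90 to 1.34) and 2.50 in high and 1.42 in other lateral cells (0.82, interval 0.59 to 1.04), Coro1a (0.44 medial, 0.43 lateral), Actg1 (0.28 medial, 0.46 lateral) and Gsn (0.38 medial, 1.08 lateral). Gsn rests on few UMIs, and its medial interval, -0.35 to 1.05, held 0. Actb and Actg1, which encode nearly the same protein, lay on opposite sides of 0 here in both libraries: Actb differed by -0.47 in medial and -0.29 in lateral cells.

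Cells high for cytokine genes such as Ccl3, Tnf and Il1b gave part of the same picture. The summed genes differed by -0.23 in medial and -0.11 in lateral cells. Their median ratio was -0.17 in medial and -0.026 in lateral cells, beside -0.056 and -0.018 over all genes. Fscn1 (0.86 medial, 0.41 lateral), Coro1a (0.28 medial, 0.27 lateral) and Gsn (0.30 medial, 0.77 lateral) were higher in both libraries, 3 of 38 beside 10.1% of all genes, though the medial interval of Gsn, -0.45 to 0.98, held 0. Cfl1 (-0.32 medial, -0.28 lateral) and Rac1 (-0.28 medial, -0.27 lateral) were lower, 2 of 38 beside 10.5% of all genes.

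In cells high for MHC class II genes, which present antigen, the 38 genes summed to 4.57% of UMIs and in the others to 5.8% in the medial library (log2 ratio -0.34), and to 5.4% in high and 6.17% in other cells of the lateral library (-0.19). The medial library had a median log2 ratio of -0.17 for the 38 genes, beside -0.14 over all genes. For the lateral library these medians were -0.12 and -0.093. The typical gene of the 38 thus lay only slightly below the typical gene of all. Tmsb10 alone was higher in both libraries, 1 of 38 beside 4.01% of all genes. It had 6.89 UMIs per 10000 in high and 5.22 in other medial cells (0.40, interval 0.27 to 0.53), and 8.76 in high and 5.37 in other lateral cells (0.71, interval 0.59 to 0.82), while its relative Tmsb4x differed by -0.43 in medial and -0.15 in lateral cells. The 6 genes lower in both, beside 13.3% of all genes, were Actb (-0.50 medial, -0.43 lateral), Actr2, Arpc2, Cap1, Cfl1 and Gsn. For Cap1 and Gsn the intervals held 0 in both libraries.

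Homeostatic genes such as P2ry12 and Tmem119 mark resting microglia, and cells high for them had the reverse pattern for Tmsb10, with -0.47 in medial and -0.57 in lateral cells. Myh9 was the other gene lower in both (-0.29 medial, -0.59 lateral), 2 of 38 beside 9.62% of all genes, and its medial interval, -0.75 to 0.14, held 0. Coro1a (0.42 medial, 0.60 lateral), Capg (0.39 medial, 0.31 lateral) and Wdr1 (0.30 medial, 0.47 lateral) were higher, 3 of 38 beside 10.1% of all genes. Summed, the 38 genes were lower in cells high for homeostatic genes, by -0.14 in medial and -0.18 in lateral cells. Yet their median ratio was 0.028 in medial and 0.064 in lateral cells, and 21 of the 38 were higher and 14 lower in both libraries. In cells high for Spp1, Gpnmb, Lgals3 and associated genes of lipid-laden microglia, Fscn1 (-0.94 medial, -0.69 lateral) and Myh9 (-0.57 medial, -0.26 lateral) were lower, 2 of 38 beside 12.7% of all genes, and Gsn was higher (0.81 medial, 0.60 lateral), 1 of 38 beside 2.6% of all genes. The lateral intervals of Myh9, -0.76 to 0.19, and of Gsn, -0.033 to 1.18, held 0. Fscn1 was thus high in cells with an early response and low in these cells in both libraries.

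Interferon response and cycling went with a slightly higher summed share of the 38 genes. Cells high for interferon-induced genes had 6.06% of UMIs in the 38 genes and the others 5.64% in the medial library (log2 ratio 0.10), and 6.69% in high and 6.02% in other cells of the lateral library (0.15). No gene of the 38 passed a ratio of 1.2 in both libraries, beside 5.22% of all genes higher and 5.47% lower. Cycling cells had 6.31% of UMIs in the 38 genes and the others 5.57% in the medial library (0.18). In the lateral library it was 6.68% in cycling and 5.97% in other cells (0.16). The median ratio of the 38 genes was only 0.041 in medial and 0.051 in lateral cells, below 0.077 and 0.083 over all genes. Of the 38, 20 were higher and 15 lower in cycling cells of both libraries. Myh9, whose myosin drives the cleavage furrow of dividing cells, was higher by 0.69 in medial and 0.41 in lateral cells, and Capg by 0.39 in medial and 0.56 in lateral cells, 2 of 38 beside 18.3% of all genes. Coro1b differed by -0.45 in medial and -0.43 in lateral cells, 1 of 38 beside 5.19% of all genes.

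**Figure D5:**
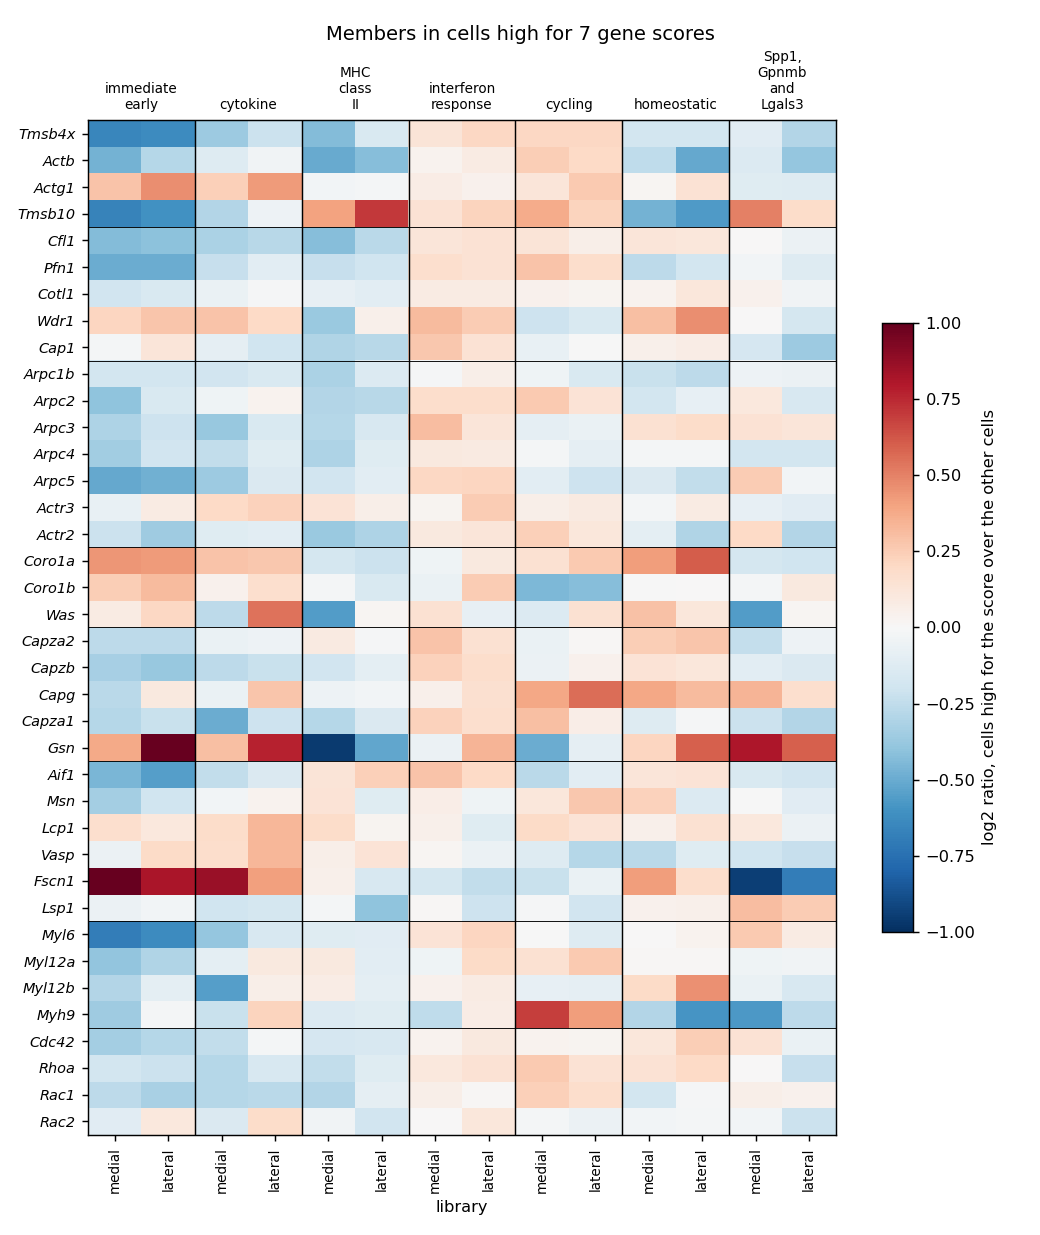
Log2 ratio of the share of UMIs in cells high for each of 7 gene scores over the other cells of the same library, for each of the 38 genes (rows) with the medial and the lateral library side by side; colours are limited to -1 to 1. Fscn1 is high with immediate early and cytokine genes and low with Spp1, Gpnmb and Lgals3, Tmsb10 is high with MHC class II and low with homeostatic genes, and interferon response is close to 0 for most genes.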

How the data were processed

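The deposited values are raw UMI counts per gene and barcode, with no normalisation, for 27998 genes and 737280 barcodes in each of the 2 libraries, made by the authors with Cell Ranger 2.0.1, STAR and mm10, per the submitters' processing notes. In all, 28660496 UMIs were counted in the medial library and 27955414 in the lateral one. Per the labels, transcript reads were 57 bases long. Here, rows with the same symbol were summed, and barcodes with at least 2400 UMIs and at most 10% mitochondrial UMIs were kept as cells, the mitochondrial limit removing 3 in each library. No doublet caller was run. UMIs were summed over cells and scaled to CPM. Ratios divide medial by lateral values and have 95% intervals from an exact binomial test conditional on the sum of both, and shares of cells have exact Clopper-Pearson intervals. Both cover counting error only. No count test between regions was run, since each region has 1 library, and nothing says how many mice gave it.

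The 38 genes, the lists and the scores were chosen with earlier results of these data known. All 38 genes are given. From each list of other actin genes, the most abundant gene and the 2 highest and 2 lowest ratios among genes with at least 100 UMIs are named, apart from 1 gene that is not reported here; the genes most and least correlated with the summed genes over cells are the 10 highest and 5 lowest. The Actb limit of 40 UMIs and the genes ranked by their correlation with Actb were added after the data were seen, as was the naming of Actr2, Myh9 and Rhoa. Myl12 and Washc1 of the lists were not matched. Mrtfa and Mrtfb, also without a match, are newer symbols of Mkl1 and Mkl2, which the lists hold as well and which were found. Sequence windows were counted in GENCODE M21 transcripts of GRCm38. Python 3.11.15, numpy 2.4.6, scipy 1.17.1, pandas 2.3.3, matplotlib 3.10.9 and R 4.3.3 with edgeR 4.0.16 (for TMM factors alone) were used, and the ratio and interval code was checked on simulated counts. The other cell calls, weights and scalings that were tried are given at the end.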

Additional observations from a re-analysis of the deposited data

How the results depend on the processing

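With 1 library per region, depth limits only the counting error, and differences between mice cannot be told apart from differences between regions. No paired analysis was possible because the labels give no replicate numbers and each region has 1 library. The median log2 ratio of the 38 genes stayed below 0 in every alternative, between -0.060 and -0.020. Their summed log2 ratio, -0.073, kept its direction but was -0.053 with at least 5000 UMIs per barcode, -0.065 with at most 5% mitochondrial UMIs, -0.13 with each cell counted alike, -0.10 with cells thinned to 1 depth, -0.036 both when centred on the median gene and with TMM factors, -0.070 with genes over 1% of UMIs left out of the total, and -0.086 without cycling cells. Centring adds 0.037 to each ratio. It gave 4 genes higher and 2 lower past a ratio of 1.1, as TMM did, where all genes gave 21% higher and 17.3% lower, and thinning gave 2 higher and 9 lower, where all genes gave 19% higher and 28.4% lower. The difference of the median share per cell, -0.31 percentage points, was -0.23 with at least 5000 UMIs, -0.27 with at most 5% mitochondrial UMIs, -0.45 without cycling cells, -0.38 without thinning and -0.41 as a difference of means. Single genes whose sign changed under some setting were Actr2, Coro1a, Coro1b, Fscn1, Lcp1, Myl6, Cotl1, Capza1, Capza2 and Gsn, all with ratios near 0. Limk2 turned to -0.072 with each cell counted alike and to -0.34 when thinned, and Coro2a to 0.021 when thinned. With the top 5% of cells by score, the log2 ratio of the summed genes in medial cells was -0.58 for immediate early, 0.13 for interferon response, -0.13 for Spp1, Gpnmb and Lgals3, -0.15 for homeostatic and -0.18 for cytokine genes, and in lateral cells -0.51 for immediate early, 0.11 for interferon response and -0.14 for homeostatic genes. Without thinning it was -0.44 for immediate early, 0.12 for cycling and -0.21 for cytokine genes in medial cells, and 0.096 for cycling, -0.21 for MHC class II, -0.15 for homeostatic and -0.14 for cytokine genes in lateral cells. No score changed the direction of the summed genes under these settings. The alternatives for Actb-high cells, chosen after seeing the data, left the sum of the other 37 genes between 0.070 and 0.16 higher in medial Actb-high cells. In lateral Actb-high cells that sum was between 0.048 and 0.094 higher. With cells not thinned and Actb at 1% of UMIs or more, 41.6% of medial and 45.8% of lateral cells were Actb-high. The causes of these changes were not tested.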

Other observations

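Total UMIs per cell went with the make-up of the actin genes. The 25% of cells with most UMIs were compared with the 25% with fewest, all thinned to 1 depth. On the log2 scale Actb differed by -0.99 in medial and -1.47 in lateral cells, and Myh9 by -1.47 in medial and -1.25 in lateral cells. Actr2 differed by -0.52 in medial and -0.90 in lateral cells, and Rhoa by -0.23 in medial and -0.25 in lateral cells. Capg ran the other way, with 3.55 UMIs per 10000 in the deepest and 2.30 in the shallowest medial cells (log2 ratio 0.63, interval 0.46 to 0.81) and 4.15 in the deepest and 2.43 in the shallowest lateral cells (0.77, interval 0.61 to 0.94). Coro1a was 0.42 higher in the deepest medial and 0.47 higher in the deepest lateral cells, and Cfl1 was 0.42 higher in medial and 0.35 higher in lateral cells. These genes were picked after their values were seen.

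Within Actb-high cells Myh9 had 111 CPM in the medial and 83.8 CPM in the lateral library, a log2 ratio of 0.41 (interval 0.18 to 0.65), and in Actb-low cells 51.4 CPM in medial and 46.3 CPM in lateral cells, a log2 ratio of 0.15 (interval -0.12 to 0.42). The difference between the classes was not tested. Some free RNA levels differed from those in cells: Capza2 had 0.727 times its free RNA level in medial and 0.755 times in lateral cells, and Coro1b had 1.34 times its free RNA level in medial and 1.49 times in lateral cells.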
